A study of Mus musculus with 36 samples.

Results

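The genes described here are 8 members of the RGS family in mouse liver, of which Rgs16 was chosen by its FPKM over the day, for an early rise under chronic intermittent hypoxia (IH), and Rgs2, Rgs3, Rgs5, Rgs10, Rgs12, Rgs14 and Rgs19 serve as comparison. They were found by gene symbol among 24066 symbols of the liver expression tables, and all 8 had a value above 0 in each of the 36 libraries. The tables hold 21 RGS symbols in all. Of the 13 others, Rgs1 (mean 0.483 FPKM over the 36 libraries) and Rgs4 (mean 0.171 FPKM) reached the level needed for a test, and Rgs13, Rgs21 and Rgs22 were listed at 0 in every library. FPKM counts fragments scaled to the length of the transcript and to the mapped fragments of the library, so levels may be compared between genes.

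The livers came from wild-type male C57BL/6JRj mice, 16 weeks old, fed chow freely under 12 h of light and 12 h of dark with lights on at Zeitgeber time (ZT) 0. IH mice spent 4 weeks with 60 cycles per h of hypoxia and reoxygenation from ZT0 to ZT8 each day, oxygen swinging between 5% and 21% of inspired gas. Control mice received cycles of air in the same way and stayed in normoxia. Polyadenylated RNA of 3 mice was sequenced for each condition at each of 6 time points 4 h apart, which gave 12 groups and 18 libraries per condition.

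RGS proteins (regulators of G protein signalling) speed up the hydrolysis of GTP by the alpha subunits of heterotrimeric G proteins, and so shorten the signal of G protein-coupled receptors. RGS16, RGS2, RGS3 and RGS5 are small or mid-sized members that act on the Gi and Gq classes, with RGS2 acting mainly on Gq, while RGS12 and RGS14 carry further domains and act on Gi. In hepatocytes these receptors include those for glucagon (through Gs), adrenaline and noradrenaline (through Gq and Gs) and adenosine. Rgs16 is known as a transcript of liver that varies strongly over the day and with feeding.

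Rgs16 lies at chr1:153740349-153745468 on the plus strand (mm10, GENCODE annotation), with 1 annotated transcript. An annotated antisense transcript, Gm28513, covers 1917 bp of it and is not among the symbols of the tables. The library kit kept the strand, but whether strand was used when fragments were assigned is not given in the sources used here. Rgs2 (chr1:143999338-144004161, minus strand) and Rgs5 (chr1:169655501-169695813, plus strand) are on the same chromosome. Rgs3 is at chr4:62559847-62704001 (plus strand), Rgs10 at chr7:128373621-128418758 (minus strand), Rgs12 at chr5:34949445-35039644 (plus strand), Rgs14 at chr13:55369732-55384687 (plus strand) and Rgs19 at chr2:181688419-181693977 (minus strand).

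The stretches of 250 bases before the RefSeq start of Rgs16, Rgs12 and Rgs2 are given because these are the members on which the time courses below turn. They are from GRCm38.p6, read 5′ to 3′ on the strand of the gene, for Rgs16 at chr1:153740103-153740352, for Rgs12 at chr5:34949198-34949447 (the upstream one of 2 stretches listed for it) and for Rgs2 at chr1:144004150-144004399.
Rgs16: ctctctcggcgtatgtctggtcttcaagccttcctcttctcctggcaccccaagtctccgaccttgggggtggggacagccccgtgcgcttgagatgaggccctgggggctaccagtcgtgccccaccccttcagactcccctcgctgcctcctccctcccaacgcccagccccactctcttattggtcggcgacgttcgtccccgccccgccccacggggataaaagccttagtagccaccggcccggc
Rgs12: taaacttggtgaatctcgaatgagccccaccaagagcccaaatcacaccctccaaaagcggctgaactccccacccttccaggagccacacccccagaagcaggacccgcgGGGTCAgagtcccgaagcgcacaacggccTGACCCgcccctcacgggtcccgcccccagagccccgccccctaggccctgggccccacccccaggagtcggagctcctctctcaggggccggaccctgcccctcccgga
Rgs2: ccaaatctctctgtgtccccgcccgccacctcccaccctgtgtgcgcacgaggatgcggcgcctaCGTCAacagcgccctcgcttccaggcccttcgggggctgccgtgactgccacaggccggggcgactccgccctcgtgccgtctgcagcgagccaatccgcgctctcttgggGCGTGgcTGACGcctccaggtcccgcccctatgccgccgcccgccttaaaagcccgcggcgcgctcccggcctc
Capitals mark matches, on either strand, to the E-box CACGTG, the cAMP response element core TGACG, the hypoxia response core ACGTG or GCGTG, and the nuclear receptor core AGGTCA or GGGTCA. The E-box letters contain ACGTG, so a match to the E-box is also one to the hypoxia response core. Of 32851 RefSeq promoter stretches of this length, 6.02% held the E-box, 17.8% TGACG, 38.6% the hypoxia response core and 23.8% the nuclear receptor core. The Rgs16 stretch held 0 matches to these letters. The Rgs12 stretch held 2 matches to GGGTCA. The other stretch listed for Rgs12, at chr5:34998828-34999077 and not printed here, held TGACG from 82 to 78 bases before its start. The Rgs2 stretch held TGACG from 67 to 63 bases before the start, the same letters on the other strand from 185 to 181 bases, and GCGTG from 74 to 70 bases. A match of letters is a description of the sequence and says nothing of binding. RefSeq stretches were found for 7 of the 8 members, all except Rgs14.

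Rgs16 was low at ZT0 and highest at ZT8 in both conditions, and the conditions were furthest apart at ZT4, when Rgs16 was still near its daily low in control mice and already near its daily peak in IH mice. Rgs16 was selected on these values, so they are a description and carry no test. At ZT0 the 3 control libraries read 1.10, 0.336 and 0.281 FPKM and the IH libraries 1.02, 2.23 and 5.07 FPKM, which overlap, with a ratio of the means of 4.84. At ZT4 the control libraries read 3.42, 1.02 and 1.58 FPKM and the IH libraries 86.8, 77.5 and 78.0 FPKM. Every IH library at ZT4 was far above every control library. The 3 IH mice were alike at ZT4, with a coefficient of variation of 6.47% against 62.7% in control, at very unlike levels. In IH this coefficient was 74.8% at ZT0, 23.8% at ZT8, 19.1% at ZT12, 24.8% at ZT16 and 103% at ZT20.

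The mean at ZT4 was 80.7 ± 5.23 FPKM in IH and 2.01 ± 1.26 FPKM in control (SD, n = 3 each), a ratio of 40.2. On the log2(FPKM + 1) scale the difference at ZT4 was 4.84 ± 0.34 (SE from the 6 libraries). Not overlapping between the conditions is by itself common at this time point, where it held for 34.5% of the 13215 genes tested. In whole liver, more RNA per cell and more cells of a type that makes it cannot be told apart.

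At ZT8 Rgs16 was 50.2, 75.6 and 90.4 FPKM in controls and 155, 102 and 108 FPKM in IH. The lowest IH library was above the highest control library here too, as for 18.1% of genes tested at ZT8 in either direction. The means were 72.1 ± 20.4 and 122 ± 29.1 FPKM (SD, n = 3 each), a ratio of 1.69 and a log2 difference of 0.77 ± 0.31 (SE). The condition difference at ZT8 was thus much smaller than the one 4 h earlier.

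From ZT12 on the conditions overlapped at each time point. At ZT12 the control libraries read 21.6, 10.6 and 29.9 FPKM and the IH libraries 16.2, 11.5 and 16.6 FPKM. At ZT16 they read 1.59, 3.60 and 0.664 FPKM in controls and 2.55, 1.74 and 1.65 FPKM in IH. At ZT20 they read 1.68, 0.754 and 3.35 FPKM in controls and 2.64, 0.965 and 9.43 FPKM in IH. The fall after ZT8 was therefore seen in both conditions, and the highest value at ZT16 and ZT20, 9.43 FPKM, was that of a single IH library.

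**Figure D1:**
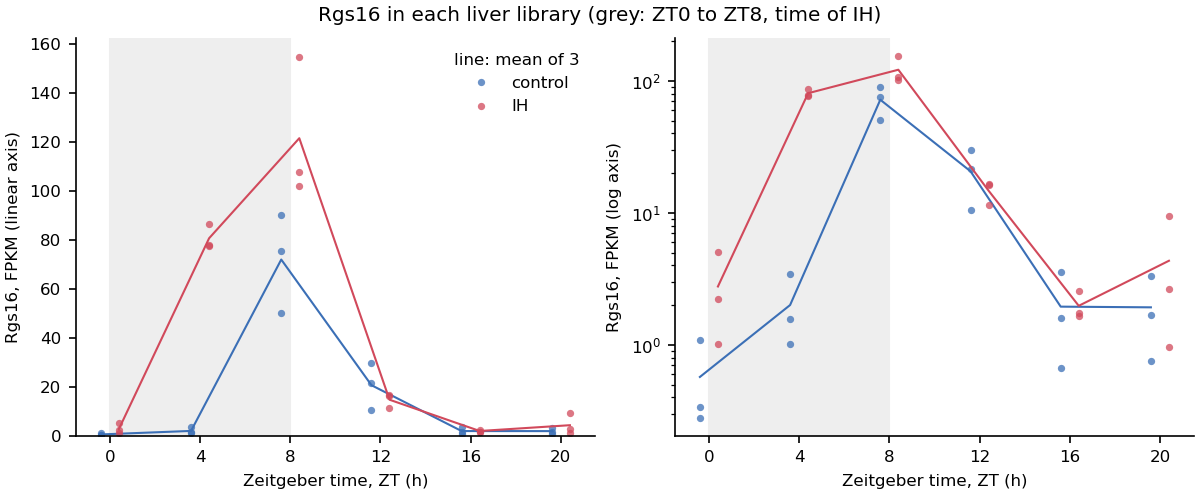
Rgs16 in FPKM against Zeitgeber time in h, on a linear axis (left) and a log axis (right), with 1 point per library, lines through the means of 3, control in blue and IH in red. At ZT4 the IH libraries lie between 77.5 and 86.8 FPKM and the control libraries between 1.02 and 3.42 FPKM, while from ZT12 to ZT20 the points of both conditions overlap.

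The time at which Rgs16 climbed differed between the conditions. From ZT0 to ZT4 its mean rose 3.51-fold in control and 29.1-fold in IH, and from ZT4 to ZT8 35.9-fold in control and 1.51-fold in IH. The ZT4 mean was 2.79% of the ZT8 mean in control and 66.1% in IH. Ordered by level, the control groups ran ZT8, ZT12, ZT4, ZT16, ZT20 and ZT0, with the libraries of ZT4, ZT16, ZT20 and ZT0 overlapping, and the IH groups ran ZT8, ZT4, ZT12, ZT20, ZT0 and ZT16, with ZT20, ZT0 and ZT16 overlapping. The mean over the day was 16.5 FPKM in controls and 37.8 FPKM in IH, a ratio of 2.28, and the highest group mean was 126 times the lowest in control and 61.6 times in IH.

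A cosine of 24 h fitted to log2(FPKM + 1) placed the peak of Rgs16 at ZT 9.71 h in control and ZT 6.99 h in IH. Leaving out each library in turn kept these phases at 9.34 to 10.1 h and 6.64 to 7.14 h. The cosine accounted for 71.7% of the variance in control and 83% in IH. A cosine is a coarse description of so steep a time course sampled every 4 h, and the samples do not fix the hour of the peak more closely than that.

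Rgs16 also moved within the ranking of liver transcripts. At ZT4 it ranked 6842 to 9727 of the symbols in the control libraries and 784 to 853 in the IH libraries. Of the summed FPKM of the 8 RGS genes it made up 9.38% to 37.4% in control and 87.1% to 92.4% in IH at ZT4, against 86.6% to 93.1% and 94.1% to 95.2% at ZT8. The difference of 4.84 at ZT4 was the highest among the 13215 genes, as was the change of 4.58 from ZT0 to ZT4 within IH. Both stayed highest under each of 3 other scalings and without the filter on low values. With a pseudocount of 0.1 in place of 1 they ranked 3 and 5. Rgs16 was selected for this early rise, so its ranks are a description and no added result.

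The other 7 RGS genes had low and much flatter levels. Averaged over the 36 libraries, Rgs16 stood at 27.2 FPKM, Rgs3 at 3.22, Rgs5 at 1.48, Rgs10 at 0.970, Rgs12 at 0.804, Rgs19 at 0.582, Rgs2 at 0.528 and Rgs14 at 0.0744 FPKM. In control mice at ZT0 Rgs16 was below Rgs3 in each library, and at ZT8 it was above all the others in each library of both conditions. Rgs14, with a mean under 0.1 FPKM, was described and not tested, which left 6 comparison genes for the tests.

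None of the 6 comparison genes passed the test for a difference between IH and control at any time point (limma, adjusted over all genes, adjusted p under 0.05). The share of all genes called was 0% at ZT0, 1.16% at ZT4, 0.00757% at ZT8, 0.772% at ZT12, 0.00757% at ZT16 and 0% at ZT20. Unadjusted p was under 0.05 for 1 of the 6 genes at ZT0 (Rgs12), 1 at ZT4 (Rgs12), 3 at ZT12 (Rgs2, Rgs10 and Rgs19) and 0 at the other time points. With ZT4 and ZT8 in one contrast, 0 of the 6 were called against 7.98% of all genes, with unadjusted p under 0.05 for 2 (Rgs12 and Rgs2). Over all time points 0 were called against 0.356% of all genes, with unadjusted p under 0.05 for 1 (Rgs2). Read against these shares, 0 of 6 was near the background.

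**Figure D2:**
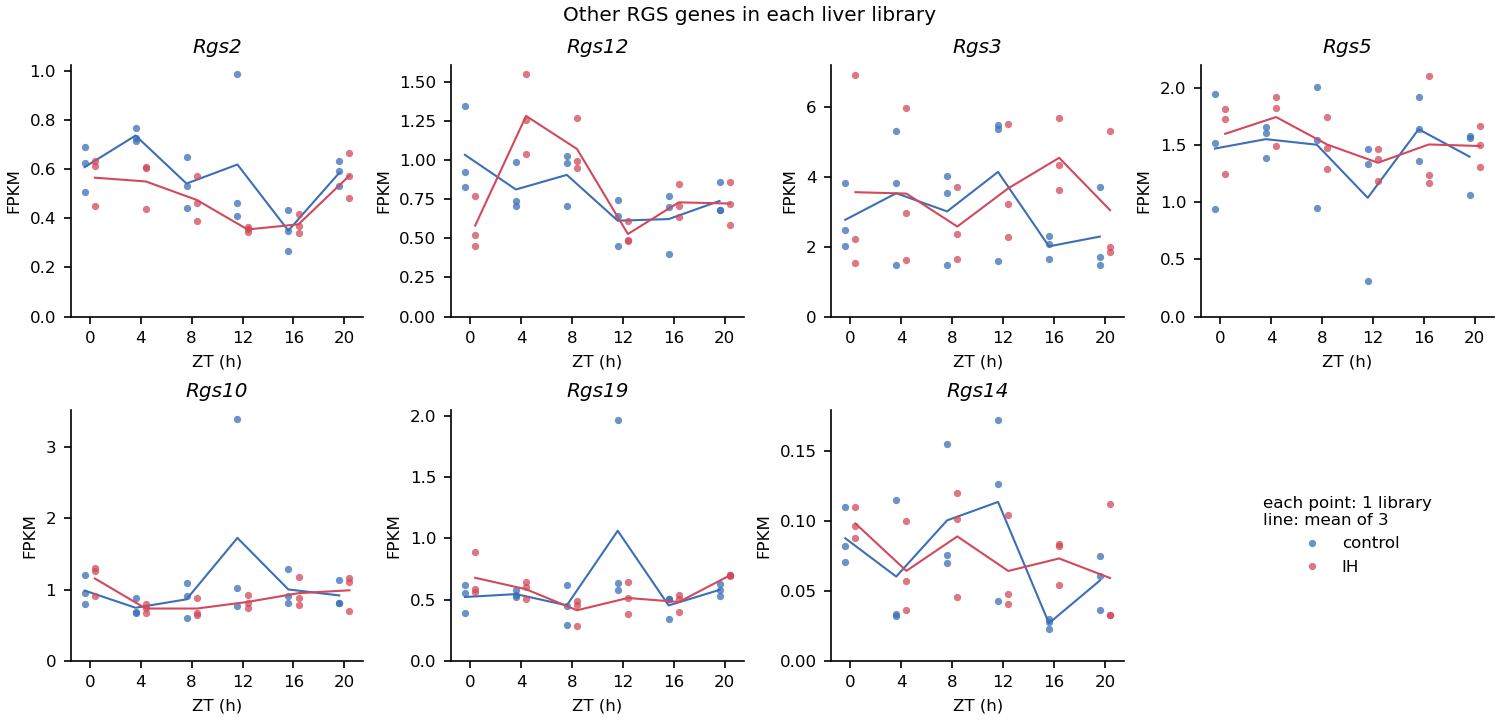
FPKM of the other 7 RGS genes against Zeitgeber time in h, with 1 point per library, lines through the means of 3, control in blue and IH in red, and axes that start at 0. The points of Rgs10 at 3.39 FPKM, Rgs19 at 1.97 FPKM and Rgs2 at 0.988 FPKM at ZT12 come from a single control library, and Rgs12 has its IH points above the control points at ZT4 and below them at ZT0.

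Rgs12, the large member with PDZ and GoLoco domains that acts on Gi, was the only comparison gene called for a change from ZT0 to ZT4 in IH. At ZT0 its control libraries read 1.35, 0.826 and 0.927 FPKM and its IH libraries 0.523, 0.450 and 0.773 FPKM. At ZT4 its control libraries read 0.710, 0.739 and 0.990 FPKM and its IH libraries 1.04, 1.55 and 1.26 FPKM. The IH mice were thus all below the control mice at ZT0 and all above them at ZT4, a lack of overlap shared by 10.8% of genes tested at ZT0 and 34.5% at ZT4.

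The change from ZT0 to ZT4 in Rgs12 was 0.53 ± 0.11 in IH on the log2(FPKM + 1) scale (SE, adjusted p = 0.0024, limma). This was 1 of 6 comparison genes against 9.35% of all genes, and 5.01% of all genes rose. In control the change was -0.16 ± 0.11 (SE, adjusted p = 0.46), and 0 of the 6 genes were called against 3.81% of all genes, with unadjusted p under 0.05 for 0. The difference between these changes was 0.69 ± 0.15 (SE, unadjusted p = 0.00011), which did not pass after adjustment (adjusted p = 0.063, 0 of 6 called against 0.121% of all genes). It passed in 4 of 19 alternatives, among them leaving out the control library at ZT12 described below (adjusted p = 0.018), with adjusted p from 0.0083 to 0.23 over all 19.

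Within single time points the Rgs12 difference between IH and control was -0.36 ± 0.11 at ZT0 (SE, adjusted p = 0.36) and 0.33 ± 0.11 at ZT4 (SE, adjusted p = 0.12). At ZT8 its libraries overlapped, at 1.03, 0.705 and 0.984 FPKM in controls and 0.996, 1.27 and 0.950 FPKM in IH. From ZT12 to ZT20 the group means lay between 0.528 and 0.740 FPKM. For comparison, the change of Rgs16 from ZT0 to ZT4 was 0.89 in control and 4.58 in IH on the same scale. Adding 1 understates the change of Rgs12, whose IH mean was 0.582 FPKM at ZT0 and 1.28 FPKM at ZT4. Over 13 alternatives its log2 change in IH was 0.44 to 1.03.

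**Figure D3:**
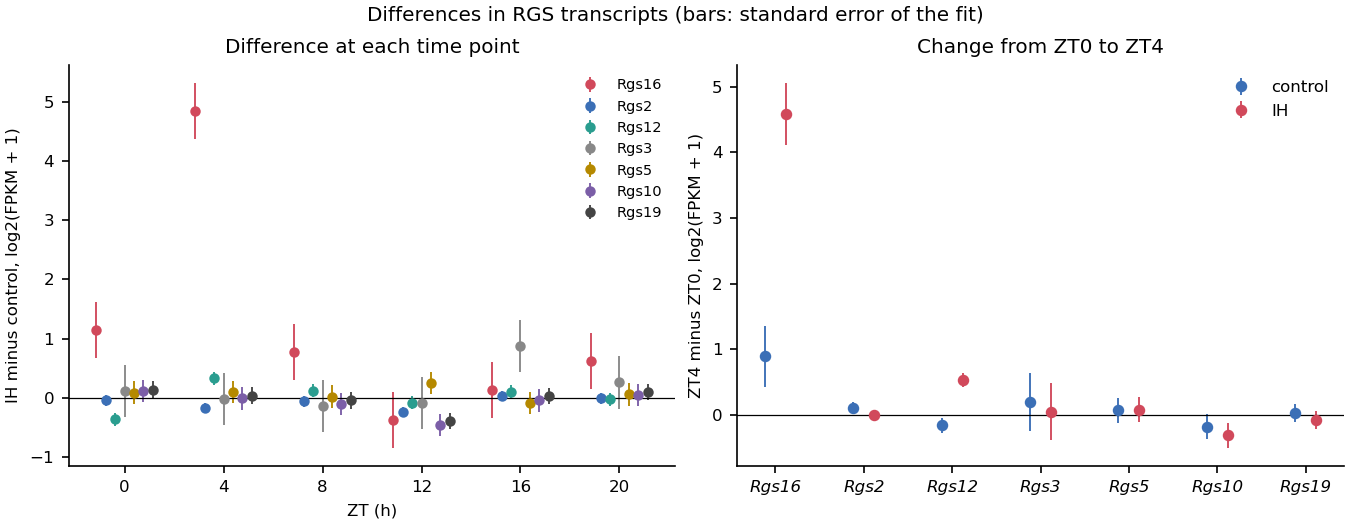
Differences in log2(FPKM + 1) with the standard error of the fit, as IH minus control at each time point (left, 7 genes offset sideways) and as ZT4 minus ZT0 in each condition (right, control in blue and IH in red). Rgs16 stands at 4.84 at ZT4 on the left and 4.58 in IH on the right, followed on the right by Rgs16 in control at 0.89 and Rgs12 in IH at 0.53.

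Rgs2, which acts mainly on Gq, was lower in IH than in control at ZT4 without overlap, as for 34.5% of genes tested, but not past the test. Its ZT4 libraries read 0.769, 0.727 and 0.717 FPKM in controls and 0.437, 0.607 and 0.608 FPKM in IH, a log2 difference of -0.17 ± 0.09 (SE, adjusted p = 0.34). At ZT12 they read 0.461, 0.988 and 0.410 FPKM in controls and 0.357, 0.344 and 0.364 FPKM in IH, again without overlap, as for 13.1% of genes tested at ZT12. This was a difference of -0.24 ± 0.09 (SE, adjusted p = 0.10), and -0.08 without the control library at 0.988 FPKM (adjusted p = 0.62, range 0.011 to 0.81 over 13 alternatives). The levels of Rgs2 in the 2 conditions overlapped at ZT0, ZT8, ZT16 and ZT20.

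Rgs2 varied over the day in IH (24 h cosine in limma, called at a nominal P under 0.01, adjusted p = 0.0051), with a fitted peak at ZT 0.746 h and an amplitude of 0.12 on the log2 scale. Its IH group means ran from 0.355 ± 0.0104 FPKM at ZT12 to 0.574 ± 0.0926 FPKM at ZT20 (SD, n = 3 each). In control it was not called (adjusted p = 0.16). Without the control library at ZT12 that read 0.988 FPKM it was called there too (adjusted p = 0.0024, range 0.0024 to 0.46 over 27 alternatives). The difference between these rhythms was not past the test (adjusted p = 0.92).

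Rgs19, a small member of the RZ group that acts on Gi classes, was the other comparison gene called rhythmic in IH (limma, adjusted p = 0.020, fitted peak at ZT 22.4 h). Its IH libraries ran from 0.288 to 0.888 FPKM with a median of 0.550 FPKM. At ZT20 it read 0.701, 0.703 and 0.690 FPKM in IH and 0.631, 0.529 and 0.580 FPKM in control, without overlap, as for 16.0% of genes tested at that time. The rhythm call of Rgs19 held in 16 of 27 alternatives.

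In all, 2 of the 6 comparison genes were rhythmic in IH at a nominal P of 0.01 against 39.9% of all genes, and 0 of 6 in control against 20.0%, with unadjusted p under 0.05 for 1 (Rgs12). The difference in rhythm was called for 0 of the 6 and for 0% of all genes. Rgs10 (adjusted p = 0.045) and Rgs12 (adjusted p = 0.046) came next in IH and did not reach the nominal threshold. The share of rhythmic RGS genes was near or below the share of all genes.

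Rgs3, a longer member with 17 annotated transcripts, had the widest spread within groups among the 6 comparison genes tested on the log2(FPKM + 1) scale, where the SE of its difference at a time point was 0.44 against 0.09 to 0.19 for the other 5. In IH at ZT0 its libraries read 6.92, 1.53 and 2.23 FPKM, and in control at ZT4 1.48, 5.30 and 3.81 FPKM. At ZT16 it read 2.31, 2.08 and 1.64 FPKM in controls and 4.33, 5.69 and 3.61 FPKM in IH, without overlap, as for 13.8% of genes tested at ZT16. That difference was 0.87 ± 0.44 (SE, unadjusted p = 0.058, adjusted p = 1). Rgs5, known from pericytes and vascular smooth muscle, ranged from 1.17 to 2.11 FPKM in IH and from 0.309 to 2.01 FPKM in control, and its largest difference between conditions was 0.25 ± 0.19 at ZT12 (SE, adjusted p = 0.40), and -0.04 there without the library described next.

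Rgs14, which carries a GoLoco domain and acts on Gi, was the lowest of the 8 genes, between 0.0229 and 0.172 FPKM over the 36 libraries. At ZT16 it read 0.0301, 0.0276 and 0.0229 FPKM in controls and 0.0837, 0.0818 and 0.0538 FPKM in IH, without overlap. Such a lack of overlap held for 13.8% of genes tested at ZT16, and Rgs14 was not among the genes tested. At the other time points the conditions overlapped. Levels this low are above 0 in every library, but no counts are given with which to state their error.

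Rgs10 and Rgs19, both also known from leukocytes, had their highest value in the same library, control replicate 2 at ZT12. It read 3.39 FPKM for Rgs10 against 0.595 to 1.30 FPKM in all other libraries, and 1.97 FPKM for Rgs19 against 0.288 to 0.888 FPKM. Rgs2 and Rgs14 were also highest there, at 0.988 and 0.172 FPKM, and Rgs5 was lowest, at 0.309 FPKM. Rgs16 in that library, 10.6 FPKM, was the lowest of the 6 libraries at ZT12.

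This library stood apart in other ways. Its FPKM summed to 808274, against 561964 to 626371 in the other 35. The summed level of 5 neutrophil markers (S100a8, S100a9, Retnlg, Csf3r and Mpo) was 213 FPKM there and 0.496 to 14.3 FPKM elsewhere, and that of 8 Kupffer cell and macrophage markers 289 FPKM against 28.9 to 94.9 FPKM. The 8 hepatocyte markers summed to 77300 FPKM, also above the 47400 to 66400 FPKM of the others, while the 8 markers of sinusoidal endothelium, at 55.6 FPKM, lay within their range. The part of these cells in the Rgs10 and Rgs19 values was not tested.

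**Figure D4:**
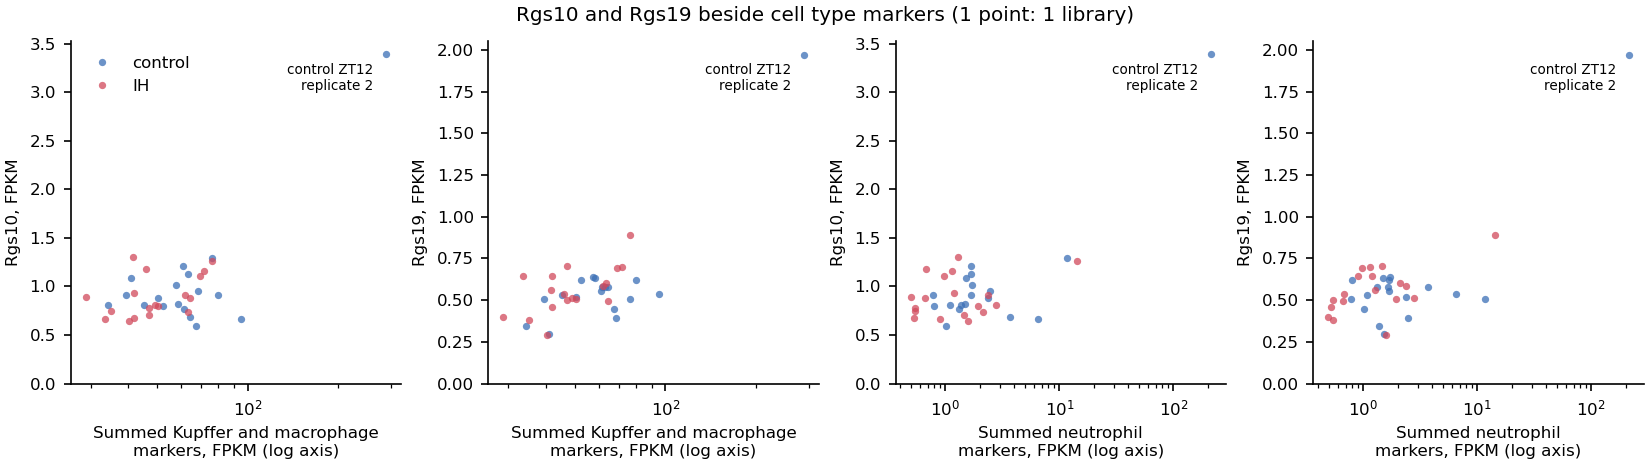
Rgs10 and Rgs19 in FPKM against the summed FPKM of Kupffer cell and macrophage markers (left pair) and of neutrophil markers (right pair, both on log axes), with 1 point per library, control in blue and IH in red. Control replicate 2 at ZT12 stands alone at 3.39 FPKM of Rgs10 and 1.97 FPKM of Rgs19, with marker sums of 289 and 213 FPKM.

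Without this library the ZT12 differences of Rgs10 and Rgs19 were -0.05 and -0.09 in place of -0.46 and -0.39. With it kept and another control library at ZT12 left out, replicate 1 or replicate 3, 3 genes (Rgs2, Rgs10 and Rgs19) were called lower in IH. The contrast at ZT4 does not contain this library, but its p-values use a spread estimated over all 36 libraries. Without this library the adjusted p at ZT4 was 0.094 for Rgs2 and 0.06 for Rgs12, in place of 0.34 and 0.12 (limma). For Rgs10 from ZT0 to ZT4 in IH it was 0.053 in place of 0.34, and none of these passed. At ZT4 the macrophage markers summed to 50.5 to 94.9 FPKM in controls and 33.5 to 63.3 FPKM in IH, and the neutrophil markers to 2.37 to 6.48 FPKM and 0.898 to 2.12 FPKM. The 8 lymphocyte markers had low sums, at 1.49 to 3.00 FPKM in IH and 0.938 to 1.33 FPKM in controls. The hepatocyte markers summed to 53000 to 55800 FPKM in controls and 62600 to 66400 FPKM in IH at ZT4, with Alb the most abundant, as the liver label has it. The neutrophil, lymphocyte and hepatocyte sums did not overlap between the conditions, as for 34.5% of single genes tested at ZT4. The sums for markers of sinusoidal endothelium, stellate cells, smooth muscle and bile duct cells overlapped. The part of these marker differences in the Rgs16 values was not tested.

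Among 9812 genes whose mean reached 1 FPKM, those whose log2 level followed Rgs16 most closely over the 36 libraries included Dbp (r = 0.90), Dazap1 (0.89), Gm10804 (0.87) and Abcg5 (0.87). The libraries share the time of day and the condition, so these correlations are descriptions. Dbp, a transcription factor driven by the circadian clock, was 3.73 ± 0.889 FPKM in controls and 25.5 ± 14.8 FPKM in IH at ZT4, and 70.8 ± 7.77 and 92.8 ± 7.48 FPKM at ZT8 (SD, n = 3 each). Its fitted peak lay at ZT 9.51 h in control and ZT 8.42 h in IH. Abcg5, a sterol transporter, was 23.3 ± 1.25 FPKM in controls and 38.9 ± 3.39 FPKM in IH at ZT4 (SD, n = 3 each).

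The genes most opposite to Rgs16 were Smarca4 (r = -0.89), Insc (-0.88), Slc17a3 (-0.88), Elovl1 (-0.88) and Nfil3 (-0.87). Nfil3, a repressor that binds the same sites as Dbp, was 13.1 ± 2.93 FPKM in controls and 7.40 ± 2.26 FPKM in IH at ZT4 (SD, n = 3 each). Elovl1, an elongase of very long fatty acids, was 26.3 ± 0.671 and 20.7 ± 0.345 FPKM (SD, n = 3 each). Rgs16 was selected on its values at ZT4, so its larger ratio of IH to control there than in the genes named here is no added result.

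**Figure D5:**
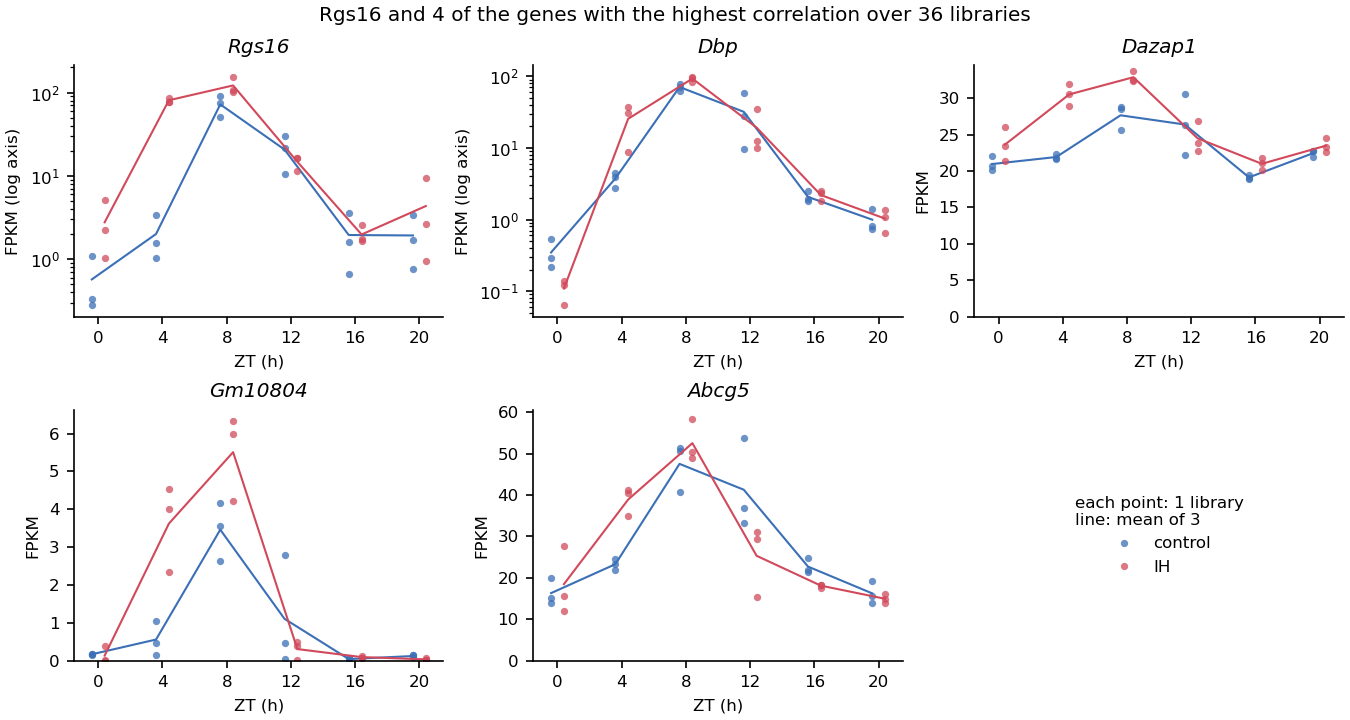
Rgs16 and 4 of the genes with the highest correlation with it, in FPKM against Zeitgeber time in h (log axis for Rgs16 and Dbp, linear axes from 0 for the others), with 1 point per library, lines through the means of 3, control in blue and IH in red. At ZT4 the mean of Rgs16 is 80.7 FPKM in IH and 2.01 in control, that of Dbp 25.5 and 3.73, and that of Abcg5 38.9 and 23.3.

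Of 11 genes tested for the alpha subunits of G proteins, 0 were called between the conditions at any single time point. This list holds the Gi and Gq classes, on which the RGS members above act, and other classes such as Gs. The differences that missed the test were not all small, and that of Gna12 was -0.68 ± 0.42 at ZT0 (SE, adjusted p = 0.77) and 0.74 ± 0.42 at ZT12 (SE, adjusted p = 0.27). Called rhythmic were 3 of the 11 in IH (Gnai2, Gnai3 and Gna12) and 0 in control, against 39.9% and 20.0% of all genes, and the difference in rhythm was called for 0. At ZT4 Gnai2 read 37.1 ± 1.11 FPKM in controls and 38.1 ± 0.81 FPKM in IH (SD, n = 3 each), Gnai3 20.8 ± 0.997 and 20.2 ± 0.740 FPKM, Gnaq 1.96 ± 0.172 and 2.30 ± 0.188 FPKM, and Gnas, the Gs subunit, 229 ± 23.5 and 254 ± 4.97 FPKM. Of 11 beta and gamma subunit genes Gnb2 alone passed at single time points, higher in IH at ZT4 by 0.36 ± 0.09 (SE, adjusted p = 0.045) and lower at ZT12 by -0.38 ± 0.09 (SE, adjusted p = 0.049), against 1.16% and 0.772% of all genes called. Gngt2 differed by -1.01 ± 0.40 at ZT12 without passing (SE, adjusted p = 0.13). The control group at ZT12 was widely spread, at 13.5 ± 16.8 FPKM for Gngt2 and 15.5 ± 11.9 FPKM for Gna12 (SD, n = 3 each). The control library at ZT12 described above enters the ZT12 differences of Gna12, Gnb2 and Gngt2, and values without it are not given for these genes.

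Of 29 receptor genes tested, 0 differed between the conditions at a single time point. At ZT4 the glucagon receptor gene Gcgr read 127 ± 14.1 FPKM in controls and 140 ± 5.73 FPKM in IH (SD, n = 3 each, adjusted p = 0.45), and the adrenergic receptor gene Adra1b had an adjusted p of 0.67. From ZT0 to ZT4 in IH, 5 of the 29 rose, P2ry2 by 0.85, the adenosine receptor gene Adora1 by 1.03, Adra1a by 0.43, Adrb3 by 0.71 and Agtr1a by 0.68 on the log2 scale, and Gpr182 fell by 0.45, against 9.35% of all genes called and 5.01% that rose. In control 2 fell, Gpr182 by 0.65 and S1pr1 by 0.88, against 3.81% of all genes called, and the difference of the changes was called for 0 of the 29.

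Of 35 genes of cAMP signalling and receptor desensitisation tested, 0 were called at any single time point. With ZT4 and ZT8 in one contrast, the phosphodiesterase gene Pde4c and the G protein modulator gene Gpsm1 were higher in IH by 0.36 and 0.14, and Prkar2a was lower by -0.26 on the log2 scale, 3 of 35 against 7.98% of all genes. From ZT0 to ZT4 in IH, Adcy9 and Adrbk2 rose by 0.52 and 0.24, and the receptor kinase gene Grk5 fell by 0.70, 3 of 35 against 9.35% of all genes. In control Adrbk2 rose by 0.27, and Pde4a and Adrbk1 fell by 0.46 and 0.24, 3 of 35 against 3.81% of all genes. The difference of the changes was called for 0 of the 35.

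Rgs16 was not alone in being higher in IH at ZT4. There, 6 of 22 glucose-responsive genes tested were called higher and 0 lower, against 0.885% of all genes called higher and 1.16% called in either direction. Like the other lists, this one was chosen with earlier results of these data known, so its share is a description. The median difference of this list was 0.68, against 0.07 for all genes. The list was not higher at ZT4 alone, since its median difference was 0.25 at ZT0, 0.26 at ZT8, 0.35 at ZT12, 0.43 at ZT16 and 0.23 at ZT20, and over all time points 7 of 22 were called, all higher in IH, against 0.356% of all genes. Txnip, which restrains glucose uptake, read 16.2 ± 6.31 FPKM in controls and 52.3 ± 13.8 FPKM in IH (SD, n = 3 each, adjusted p = 0.0062), Klf10, a transcription factor, 6.97 ± 3.32 and 25.6 ± 10.3 FPKM (adjusted p = 0.023), and the pyruvate kinase gene Pklr 55.4 ± 8.04 and 132 ± 20.2 FPKM (adjusted p = 0.016). The glucose transporter gene Slc2a2 and Tkfc were among the others, higher by 1.01 and 0.71 on the log2 scale. Mlxipl, which encodes the glucose-sensing factor ChREBP, read 97.3 ± 2.92 and 106 ± 7.47 FPKM (adjusted p = 0.74). From ZT0 to ZT4, 5 of the 22 rose in IH (among them Txnip by 1.75, Klf10 by 2.22, Slc2a2 by 0.99 and Arrdc4 by 0.72), where 5.01% of all genes rose, and 0 in control, where 3.81% of all genes were called in either direction, and the difference of the changes was called for 0.

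Of 23 genes known to respond to fasting and cAMP, 0 were called at any single time point, and their median difference at ZT4 was -0.02. Pck1, the gene of a gluconeogenic enzyme, read 807 ± 114 FPKM in controls and 743 ± 263 FPKM in IH at ZT4 (SD, n = 3 each, adjusted p = 0.90), and the coactivator gene Ppargc1a 0.834 ± 0.173 and 0.772 ± 0.118 FPKM (adjusted p = 0.91). With ZT4 and ZT8 in one contrast Sds, which breaks down serine, was higher in IH by 0.59 (adjusted p = 0.0065), and Crem, which makes repressors of the cAMP response, was lower by -0.41 (adjusted p = 0.042), 2 of 23 against 7.98% of all genes. From ZT0 to ZT4 in IH, Cpt1a and Sds rose by 0.93 and 1.05, and Crem and Pdk4 each fell by 0.82, 4 of 23 against 9.35% of all genes. In control Creb1 fell by 0.33, 1 of 23 against 3.81% of all genes, and the difference of the changes was called for 0 of the 23.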

How the data were processed

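Liver mRNA was measured by poly(A)-selected, strand-keeping, paired-end RNA-seq. Reads were mapped by the authors to mm10 (TopHat2 2.1.1 with Bowtie2), and FPKM were estimated with Cufflinks 2.2.1 for each replicate, per the labels and the study's methods. The deposited values are FPKM per symbol, 1 table per condition. They hold no counts, so depth and the precision of low values are unknown. The annotation used, and whether samples were scaled to each other, are not given in the sources used here. Condition, time point and replicate were taken from the labels. The names of the tables gave the condition of each.

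Of 24346 symbols on 24883 rows, 280 on more than 1 row were left out. Tests ran on log2(FPKM + 1) in limma 3.58.1 under R 4.3.3 (intensity trend, Benjamini-Hochberg adjustment over the 13215 genes whose mean reached 0.1 FPKM). Adding 1 understates the change of low genes. Contrasts at single time points and from ZT0 to ZT4 used all 36 libraries in 12 groups, that of ZT4 with ZT8 used 12 libraries with time as a factor, and rhythms were tested with a 24 h cosine within a condition (nominal P of 0.01). The study's own tests, Cyber-T and BIO_CYCLE, were not used here. Scripts were tested on simulated data. Replicates are separate mice per the labels.

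The 8 members and the gene lists were chosen with earlier results of these data known. Named from each list were genes past a test (at most 6 with the smallest P) and 12 genes whatever their result. Some genes that fall under the naming rule are not reported here. Rgs16 was left out of the counts of RGS genes and of the tests reported. It was among the 13215 genes over which p was adjusted and the shares of all genes were taken. Same-numbered mice of the conditions were not paired, as residuals of the 18 pairs correlated by 0.05 on average and only 5 exceeded 0.1. Those 5 were all at ZT12 and ZT20, from 0.13 to 0.29. Alternatives were a pseudocount of 0.1, no filter or a mean of at least 1 FPKM, 3 scalings, the replicate number as a block, other rhythm tests and leaving out each library. Leaving out 1 control library at ZT12 from contrasts that do not contain it was added after seeing the data. Promoter stretches are from RefSeq (GRCm38.p6), coordinates from GENCODE. Python 3.11.15 with matplotlib 3.10.9 drew the plots.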

Additional observations from a re-analysis of the deposited data

How the results depend on the processing

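Of 2118 alternatives to the values above, 0 reversed a direction that had been called, but few of them could. Among the comparison genes, only the change of Rgs12 from ZT0 to ZT4 in IH was called with a direction in the main fit. The rhythm calls have no sign. Of 1732 alternatives for single genes, 64 changed sign with no call either way. The Rgs16 difference at ZT4 was 5.43 with a pseudocount of 0.1, the ZT0 difference 2.03 in place of 1.15, and the change from ZT0 to ZT4 in control 1.68, since a smaller pseudocount widens differences from low values. Leaving out each library in turn gave 4.59 to 5.16 for the ZT4 difference, 0.53 to 0.95 for ZT8, 0.57 to 1.14 for ZT0 to ZT4 in control and 4.20 to 5.00 in IH. For the other RGS genes, counts of calls moved as follows. Rhythmic in control was 1 with FPKM rescaled to a common sum (Rgs2) and 0 to 1 with libraries left out, the 1 without control ZT12 replicate 2. Rhythmic in IH was 0 with a mean of at least 1 FPKM, a filter that Rgs2, Rgs12 and Rgs19 do not pass, 1 with the median of ratios (Rgs2), 0 with quantile normalization, 1 with a spread shared by both conditions (Rgs12), 4 with an adjusted P of 0.05, and 1 to 2 with libraries left out. The change from ZT0 to ZT4 in IH was called for 0 with a mean of at least 1 FPKM, by the same filter, and for Rgs12 in each of 13 other alternatives. The count at ZT12 was 0 to 3 and that of the difference between the ZT0 to ZT4 changes 0 to 1 with libraries left out. The latter was 1 without control ZT12 replicate 2, IH ZT0 replicate 3, IH ZT4 replicate 1 or control ZT0 replicate 2. Where no cause is named, the cause was not tested. With the replicate number as a block, 2 genes were rhythmic in IH and 1 (Rgs12) changed from ZT0 to ZT4 in IH, and no call changed. Same-numbered mice correlated best with each other in 9 of 18 pairs. The counts behind the FPKM are unknown, so for the RGS genes under 1 FPKM the precision that depth gives cannot be stated.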
